A study of Mus musculus with 9 samples.

Results

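Rcor1, Omg, Ppp3r1, Nrp1, Adgra3 and Kmt2c are 6 genes that the study picked from these arrays as candidate targets of the miR-30 family, because their transcripts were lower after differentiation in culture. They were followed here across the culture stages with every probe shown separately. All probes listed with one of these gene symbols were taken, which gave 15 of 45281 probes and 6 of 19057 gene symbols. Neural stem and progenitor cells (NSCs/NPCs) from the dentate gyrus of adult C57BL6 mice were grown as floating neurospheres in NeuroCult medium with growth factors (EGF, bFGF and heparin), and total RNA was hybridised to Illumina mouse BeadChips, with 3 arrays for each of 3 stages. These were neurospheres still proliferating (proliferation) and cells that had differentiated until day 2 (early differentiation) or day 7 (late differentiation). For both differentiation stages the spheres were dissociated and the cells were plated on dishes coated with poly-D-lysine and laminin, kept in proliferation medium and then moved to differentiation medium, so attachment and medium changed together with time. No gene was altered and no miR-30 mimic or inhibitor was given to these cells. The arrays of a stage are labelled as biological replicates, but nothing states that they came from separate mice or cultures, so the p-values measure the spread between these arrays, which may be technical. Levels are of bulk RNA, in which fewer cells of a type and less RNA per cell cannot be told apart.

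MicroRNAs are short RNAs that guide Argonaute proteins to messenger RNAs and lower their stability or translation, mostly by pairing of the seed, the bases near the 5′ end of the miRNA, with a complementary stretch of the transcript. A family such as miR-30 is defined by a shared seed, so its members can pair with the same sites. In neural progenitors many miRNAs become more abundant as cells leave the cycle. The paper matched genes lowered in late differentiation to miR-30 targets listed in databases and selected the 6 genes from the overlap. It reported that RT-qPCR on the culture stages replicated the array result for all 6. In its reporter assay in another cell line, Kmt2c (as Mll3) and Ppp3r1 appeared as direct targets, and Rcor1 and Omg did not. Those measurements were not analysed here. The mature sequences that define the family are shown because these genes were chosen as its candidate targets. They are RefSeq sequences (GRCm38.p6), 5′ to 3′, with seed bases 2 to 8 in capitals.
mmu-miR-30a-5p: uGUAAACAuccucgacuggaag
mmu-miR-30c-5p: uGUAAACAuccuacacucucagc
mmu-miR-30e-5p: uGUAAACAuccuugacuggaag
These 3 miRNAs lie at 4 loci and have 1 seed, which pairs with UGUUUAC in a transcript. Mir30a (chr1:23272274-23272295, + strand) and Mir30c-2 (chr1:23291714-23291736, + strand) are on chromosome 1. Mir30c-1 (chr4:120769584-120769606, - strand) and Mir30e (chr4:120772660-120772681, - strand) lie inside Nfyc, which encodes a subunit of the transcription factor NF-Y. miR-30b and miR-30d belong to the same family. The arrays carried no reading of a mature miRNA that was used here, and matches to the seed in the untranslated regions of the 6 genes were not analysed here.

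Each array detected 18310 to 19919 probes (detection p under 0.05). Mean signal was 223 ± 4.91 in proliferation, 163 ± 7.10 in early differentiation and 175 ± 3.77 in late differentiation (SD, n = 3 each), so proliferation arrays were 1.36-fold brighter than early and 1.27-fold brighter than late arrays before normalization. All early arrays shared a BeadChip of their own, and the other 6 arrays another, so in any comparison with early differentiation an effect of the BeadChip cannot be told apart from the stage. Replicate 3 of every stage lay at 12.05 to 20.05 on the third principal component (4.61% of the variance), against -16.3 to 5.98 for the other arrays. Neural stem cell markers were detected on all 9 arrays (4 of 4 measured), and markers of endothelial cells and microglia had summed signals above background of only 13.1 to 30.5 per array. Values below are log2 intensities after background correction and quantile normalization, and a probe was called when its limma adjusted p (Benjamini-Hochberg, over 20935 probes kept as detected on at least 3 arrays) was under 0.05 and its fold at least 1.5. Each marker was then read by its brightest kept probe. Against proliferation, 3 of 5 astrocyte markers were called higher in late and 4 in early differentiation, and 0 lower. Over all genes 17.6% and 16.8% were called higher. Of 4 neuron markers kept, 0 were called in late differentiation, and 1 higher and 0 lower in early differentiation. Of 4 stem cell markers 2 were called higher at both stages, and 1 (late) and 2 (early) lower. Acta2, the only mural or fibroblast marker kept, was called higher at both. The part of such shifts in the values of the 6 genes was not tested.

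Of the 15 probes, 11 were kept and each gene had at least 1 of them. The 4 probes not kept, 1 of Ppp3r1 and 3 of Kmt2c, read 73.1 to 87.5 intensity units, where the background of the arrays was 74.8 to 82.4, and 1 of their 36 readings was detected. In late differentiation as compared to proliferation, the contrast on which the genes were chosen, 4 of 11 kept probes (2 of Nrp1, 1 of Rcor1 and 1 of Omg) were called lower and 0 higher, where 14.9% of all kept probes were called lower and 14.9% higher. This count describes the choice and supports nothing. In early differentiation as compared to proliferation 3 of 11 were called lower (2 of Nrp1 and 1 of Rcor1) and 0 higher, against 14.1% lower and 14.4% higher over all kept probes. In late as compared to early differentiation 1 of 11, a probe of Omg, was called lower and 0 higher, against 1.86% lower and 1.46% higher. The early arrays in these last 2 comparisons were not part of the chosen contrast, but the proliferation and late arrays were, so neither is independent of the choice.

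The median log2 fold change of the 11 kept probes was -0.54 for late differentiation against proliferation, -0.17 for early differentiation against proliferation and -0.36 for late against early differentiation, where the medians over all kept probes were 0.00, -0.01 and 0.01. The fold change was below 0 for 10 of the 11 probes in each comparison. By those medians, about as many of all kept probes lay below 0 as above. The genes were chosen as lower in late differentiation, and each other comparison shares arrays with that contrast. This direction therefore describes the choice. The 3 late arrays all lay below the 3 proliferation arrays for 8 of 11 probes (29.1% of all kept probes), the 3 early arrays below the proliferation arrays for 4 of 11 (29.7%), and the late arrays below the early arrays for 4 of 11 (12.5%). Before any normalization, intensities of all 11 probes were lower on every late array than on any proliferation array, and those of 10 were lower on every early array, as were those of 58.7% and 71.4% of all kept probes, on arrays that were dimmer as a whole. Probes of one gene are not independent of each other, so the 11 probes stand for 6 genes.

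**Figure D1:**
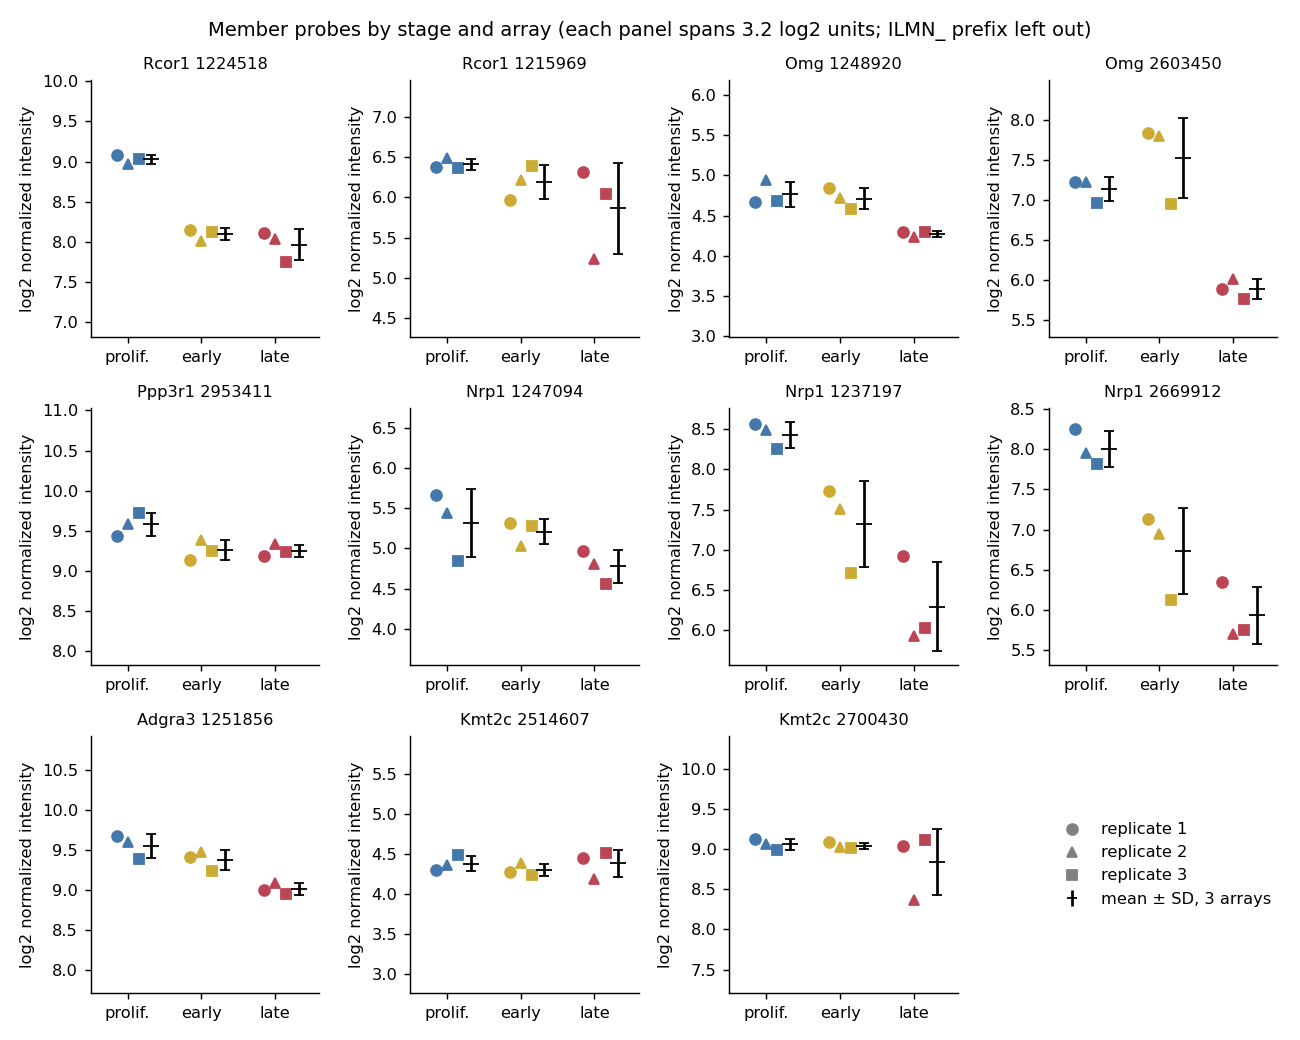
Normalized log2 intensity (y axis) of each of the 11 kept probes on the 9 arrays, by stage (x axis: proliferation, early and late differentiation; symbols: replicates; bars: mean ± SD of 3 arrays). The Rcor1 probe ILMN_1224518 is already low at early differentiation, the Omg probe ILMN_2603450 is low only on the late arrays, and the Nrp1 probes ILMN_1237197 and ILMN_2669912 are lower at early and again at late differentiation.

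Rcor1 and Kmt2c encode chromatin regulators. Rcor1 (chr12:111039367-111115902, GRCm38.p6) encodes the CoREST scaffold, which joins the histone demethylase LSD1 and the deacetylases HDAC1 and HDAC2 and is recruited by REST to silence neuronal genes. Its probe ILMN_1224518 read 9.08, 8.97 and 9.03 on the proliferation arrays, 8.15, 8.01 and 8.12 on the early arrays and 8.11, 8.03 and 7.75 on the late arrays. Every differentiation array lay well below every proliferation array, and early and late arrays overlapped. Rcor1 by this probe was lower in early differentiation as compared to proliferation, at -0.93 ± 0.11 (SE; adjusted p = 4.83e-05, limma), which is 1.91-fold. Late differentiation differed from proliferation by -1.06 ± 0.11 (2.09-fold, past the call thresholds) and from early differentiation by -0.13 ± 0.11 (adjusted p = 0.558, limma).

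The second Rcor1 probe, ILMN_1215969, is listed for the same RefSeq transcript. It read 6.38, 6.49 and 6.37 in proliferation, 5.97, 6.21 and 6.39 in early differentiation and 6.32, 5.23 and 6.04 in late differentiation. The early arrays overlapped the proliferation arrays, and the late arrays, all below them, were spread over more than 1 log2 unit. Its fold changes were -0.22 ± 0.23 in early differentiation against proliferation (adjusted p = 0.446, limma), -0.55 ± 0.23 in late differentiation against proliferation, which missed the call, and -0.33 ± 0.23 in late against early differentiation (adjusted p = 0.452, limma). Both sides of this value rested on single late arrays: without late replicate 1 it was -0.78 and was called, and without late replicate 2 it was -0.23. Without late replicate 2 the late against early value was -0.01, and without late replicate 1 it was -0.55, neither of them called.

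Kmt2c (chr5:25271795-25498855, called Mll3 in older annotation) encodes a methyltransferase of histone H3 lysine 4 that acts at enhancers within a COMPASS-type complex. It had 5 probes, of which 2 were kept. ILMN_2700430 read 9.13, 9.06 and 8.99 in proliferation, 9.09, 9.02 and 9.02 in early differentiation and 9.04, 8.37 and 9.11 in late differentiation. All arrays but late replicate 2 lay within 8.99 to 9.13, and that array alone was lower. Kmt2c by this probe differed by -0.02 ± 0.17 in early differentiation against proliferation (adjusted p = 0.935, limma), by -0.22 ± 0.17 in late differentiation against proliferation, and by -0.20 ± 0.17 in late against early differentiation (adjusted p = 0.539, limma). Without late replicate 2 the late value against proliferation was 0.01. The dim probe ILMN_2514607 was detected on 1 proliferation array, on no early array and on 2 late arrays, and its log2 fold changes lay between -0.08 and 0.08 in the 3 comparisons. The 3 other probes, ILMN_1259742, ILMN_2598778 and ILMN_2700571, were at background, so the reading of this gene rests on 1 probe.

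The values of Kmt2c depended on whether arrays were scaled to each other. Its intensity by ILMN_2700430, before background correction and normalization, averaged 488 in late, 491 in early differentiation and 755 in proliferation, and each differentiation array was lower than each proliferation array. When arrays were not normalized to each other, the median of all kept probes was itself shifted, by -0.26 in late differentiation against proliferation, by -0.34 in early differentiation against proliferation and by 0.08 in late against early differentiation. Kmt2c in that setting was at -0.74 in late and -0.68 in early differentiation against proliferation, both called, or -0.48 and -0.34 relative to those medians. The offset added in background correction compresses the changes of dim probes, so those medians can understate the shift of bright probes. The deposited value table, scaled to an equal mean, multiplied proliferation arrays by 0.75 to 0.79. It multiplied early arrays by 1.15 to 1.35 and late arrays by 1.07 to 1.15. Of the 12 alternatives besides single arrays left out, only the lack of normalization gave a call for ILMN_2700430 against proliferation. Whether arrays should be left unscaled for this gene was not tested.

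Ppp3r1 (chr11:17159298-17200380) encodes calcineurin B, the calcium-binding regulatory subunit of the phosphatase that activates NFAT factors. ILMN_2953411, its only kept probe, read 9.43, 9.59 and 9.72 in proliferation, 9.14, 9.39 and 9.25 in early differentiation and 9.19, 9.34 and 9.23 in late differentiation. All differentiation arrays lay below all proliferation arrays, by a small step, and the 2 differentiation stages overlapped. Ppp3r1 differed by -0.32 ± 0.11 in early differentiation against proliferation (adjusted p = 0.0343, limma), a 1.25-fold difference that was under the fold needed for a call. It differed by -0.33 ± 0.11 in late differentiation against proliferation (1.26-fold, also under it) and by -0.01 ± 0.11 in late against early differentiation (adjusted p = 0.972, limma). Without normalization between arrays Ppp3r1 was at -0.87 in late and -1.01 in early differentiation against proliferation, both called. Relative to the median probe these were -0.61 and -0.67, but as for Kmt2c that median can understate the shift of a bright probe.

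The other genes encode proteins of the cell surface. Nrp1 (chr8:128358591-128505476) encodes neuropilin-1, a co-receptor that binds class 3 semaphorins together with plexins in axon guidance and binds VEGF together with its receptors. Its probe ILMN_1237197 read 8.56, 8.49 and 8.25 in proliferation, 7.73, 7.51 and 6.71 in early differentiation and 6.93, 5.92 and 6.02 in late differentiation. ILMN_2669912 read 8.25, 7.95 and 7.81 in proliferation, 7.13, 6.95 and 6.13 in early differentiation and 6.34, 5.71 and 5.75 in late differentiation. Both probes stepped down at each stage, no differentiation array reached a proliferation array, and early replicate 3 overlapped late replicate 1. The early arrays spread over 1 log2 unit because replicate 3 was the lowest of them on both probes.

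Nrp1 fell in early differentiation as compared to proliferation by both probes, with log2 fold changes of -1.12 ± 0.29 (2.17-fold, adjusted p = 0.00744, limma) for ILMN_1237197 and -1.27 ± 0.25 (2.41-fold, adjusted p = 0.00151, limma) for ILMN_2669912. The first of these calls was lost in the deposited value table, at -1.20 with an adjusted p of 0.0790 (limma). Late differentiation differed from proliferation by -2.14 ± 0.29 (4.42-fold) and -2.07 ± 0.25 (4.20-fold), the lowest values among the 11 probes, and 1.42% and 1.55% of all kept probes had lower fold changes. Genes chosen as lower in this contrast rank low in it, so these shares only describe the choice. In late as compared to early differentiation the values were -1.03 ± 0.29 (adjusted p = 0.0625, limma) and -0.80 ± 0.25 (adjusted p = 0.0887, limma), neither called. Same-numbered arrays deviated together in this comparison, and with replicate number as a block both probes were called (adjusted p = 0.0104 and 0.0139, limma), so that 3 member probes were called lower in place of 1.

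These late against early values of Nrp1 also turned on single arrays. Without early replicate 3 both probes were called, at -1.33 (adjusted p = 0.0250, limma) and -1.11 (adjusted p = 0.0194, limma). Without late replicate 1, ILMN_1237197 was called at -1.35 (adjusted p = 0.0242, limma). Nrp1 is also known from endothelial cells. Of 5 endothelial markers, 4 were detected on no proliferation array, 2 on no early array and 4 on no late array. Their summed signals above background were 14.7 to 19.6 in late differentiation, 14.4 to 25.5 in early differentiation and 21.6 to 28.8 in proliferation. The part of such cells in the Nrp1 values was not tested.

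The third Nrp1 probe, ILMN_1247094, is listed for a cDNA clone in place of the RefSeq transcript. It read 5.66, 5.44 and 4.84 in proliferation, 5.31, 5.03 and 5.29 in early differentiation and 4.97, 4.81 and 4.56 in late differentiation. Its late arrays overlapped the proliferation arrays through proliferation replicate 3 but lay below all early arrays. It differed by -0.10 ± 0.19 in early differentiation against proliferation (adjusted p = 0.686, limma), by -0.53 ± 0.19 in late differentiation against proliferation, not called, and by -0.43 ± 0.19 in late against early differentiation (adjusted p = 0.224, limma). The late value against proliferation was -0.77 without proliferation replicate 3 and -0.63 without late replicate 1, and was called in both cases.

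Adgra3 (chr5:49959951-50058996, called Gpr125 in older annotation) encodes an adhesion G protein-coupled receptor with a long extracellular part. Its single probe ILMN_1251856 read 9.67, 9.60 and 9.38 in proliferation, 9.42, 9.48 and 9.23 in early differentiation and 9.002, 9.09 and 8.95 in late differentiation. The late arrays lay below all others, and the early arrays overlapped the proliferation arrays. Adgra3 differed by -0.17 ± 0.11 in early differentiation against proliferation (adjusted p = 0.227, limma) and by -0.36 ± 0.11 in late against early differentiation (adjusted p = 0.0855, limma). Late differentiation against proliferation gave -0.54 ± 0.11, or 1.45-fold, just under the fold needed, and without proliferation replicate 3 it was -0.62 and was called. Adgra3 without normalization between arrays was at -1.07 in late and -0.88 in early differentiation against proliferation, both called. Relative to the median probe these were -0.81 and -0.54, with the same limit for a bright probe.

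Omg (chr11:79500982-79504082) encodes oligodendrocyte-myelin glycoprotein, an anchored surface protein of oligodendrocytes and neurons that binds the Nogo receptor and inhibits neurite growth. Its probe ILMN_2603450 read 7.22, 7.22 and 6.97 in proliferation, 7.83, 7.80 and 6.95 in early differentiation and 5.89, 6.02 and 5.76 in late differentiation. The late arrays lay far below all others, while early replicates 1 and 2 lay above every proliferation array and early replicate 3 below them. Omg by this probe fell in late as compared to early differentiation, with a log2 fold change of -1.64 ± 0.20 (3.11-fold, adjusted p = 0.00208, limma), and 0.0621% of all kept probes had a lower fold change in that comparison. The late arrays were also part of the contrast on which the gene was chosen, so this rank is not independent of the choice. Late differentiation differed from proliferation by -1.25 ± 0.20 (2.37-fold, past the call thresholds).

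Early differentiation differed from proliferation by 0.39 ± 0.20 for this Omg probe (adjusted p = 0.142, limma). The value rested on early replicate 3: without that array it was 0.68 and was called higher (adjusted p = 0.00167, limma). It was -0.23 without normalization between arrays, or 0.11 relative to the median probe, and above 0 in every other setting. The dimmer probe ILMN_1248920 read 4.67, 4.95 and 4.68 in proliferation, 4.84, 4.72 and 4.58 in early differentiation and 4.29, 4.23 and 4.30 in late differentiation, where it was detected on 0 of 3 arrays. Late values of this probe lay below all others and are bounds: a late array was given the higher of its own value and the dimmest detected value on that array. Late differentiation was at least 1.20-fold lower than early differentiation (measured -0.44 ± 0.11, adjusted p = 0.0448, limma) and at least 1.25-fold lower than proliferation (measured -0.49 ± 0.11). Both were under the fold needed for a call, and early differentiation differed from proliferation by -0.05 ± 0.11 (adjusted p = 0.723, limma).

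Beside Omg, the markers of the oligodendrocyte lineage moved in both directions. Of 5 with a kept probe, 2 were called lower (Olig1 and Olig2) and 1 higher (Pdgfra) in late differentiation as compared to proliferation, and 2 lower (the same genes) and 2 higher (Pdgfra and Sox10) in early differentiation. In late as compared to early differentiation 1 was called lower, Olig1, and 0 higher. Olig1, a transcription factor of the lineage and by far the brightest marker, averaged 13.31 in proliferation, 12.38 in early and 11.46 in late differentiation. Pdgfra, the PDGF receptor of oligodendrocyte precursors, averaged 4.42, 5.66 and 5.14 over the same stages. By the mean of its 2 kept probes Pdgfra was not called. Sox10 was detected on 0, 3 and 2 arrays and Olig2 on 3, 1 and 0 arrays, again in order of stage, and the myelin genes Mog and Mag on no array. The summed signal above background of the 8 markers on the array was 10708 to 13381 in proliferation, 3701 to 4787 in early differentiation and 1889 to 3241 in late differentiation, nearly all of it from Olig1. Without Olig1 the sums were 75.2 to 89.0, 57.1 to 92.2 and 50.3 to 81.1, which overlapped between stages. The part of these cells in the Omg values was not tested.

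**Figure D2:**
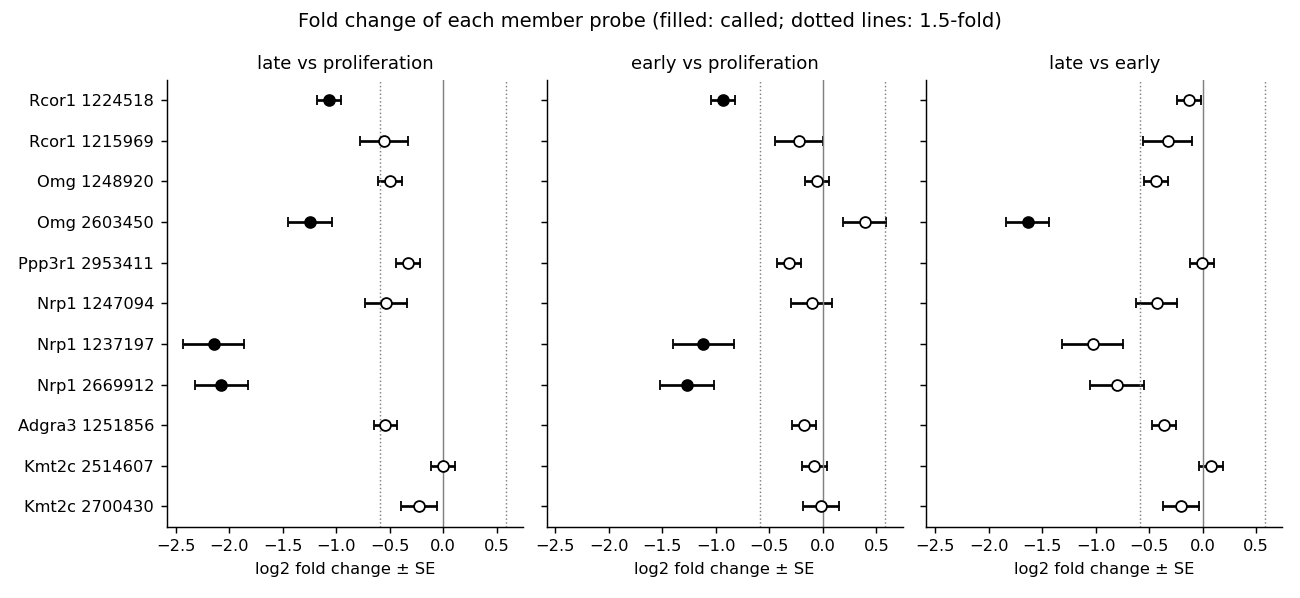
Log2 fold change (x axis, ± SE of the limma fit on 9 arrays) of each kept probe (y axis) for late differentiation against proliferation, early differentiation against proliferation and late against early differentiation; filled points passed the call and dotted lines mark 1.5-fold. The filled points are 4, 3 and 1 of 11, all below 0.

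Since several of these genes were read by more than 1 probe, the difference between the fold changes of 2 probes of a gene was tested in the same model, over 6472 probe pairs. In early differentiation as compared to proliferation, 25.3% of all pairs differed at an adjusted p under 0.05. Nrp1 by ILMN_1237197 differed from ILMN_1247094 by -1.01 ± 0.28 (adjusted p = 0.0173, limma), while ILMN_1237197 and ILMN_2669912 differed by 0.15 ± 0.13 (adjusted p = 0.463, limma). The Rcor1 probes differed by -0.71 ± 0.25 (adjusted p = 0.0526, limma) and by -0.81 without normalization between arrays (adjusted p = 0.0245, limma). The 2 Omg probes differed by 0.44 ± 0.18 (adjusted p = 0.101, limma). In late differentiation the Omg pair differed by -1.20 ± 0.18 against early differentiation (adjusted p = 0.00900, limma) and by -0.75 ± 0.18 against proliferation. The dim probe was detected on no late array and gave only a bound there. These 2 values therefore cannot show whether the probes disagree. The offset added in background correction compresses the changes of dim probes, and its part in these differences was not tested.

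**Figure D3:**
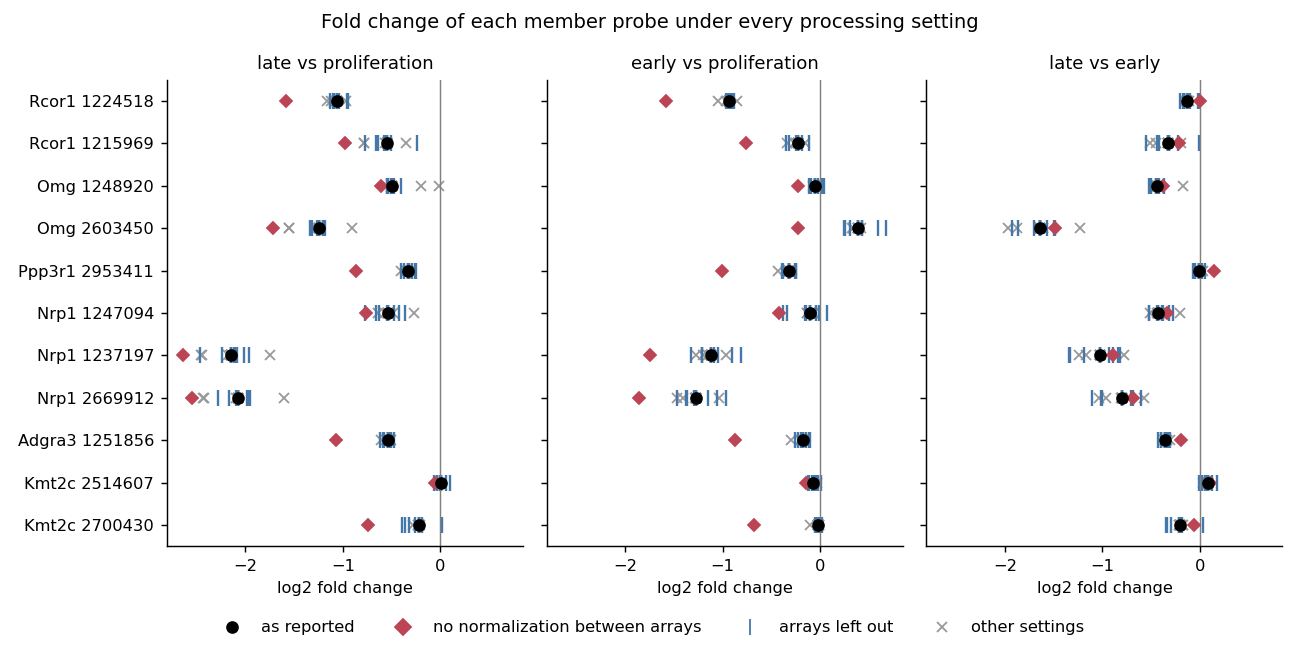
Log2 fold change (x axis) of each kept probe (y axis) in the 3 comparisons, as reported (black), without normalization between arrays (red diamonds), with arrays left out (blue ticks) and under the other settings (grey crosses). Most values without normalization lie further below 0 in both comparisons with proliferation, while the late against early values shift less.

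To set the 6 genes beside related genes, their partners, other adhesion G protein-coupled receptors and the miRNA silencing machinery were counted, each gene by its brightest kept probe. Over all 11009 genes, 16.2% were called lower and 17.6% higher in late differentiation against proliferation, 15.2% and 16.8% in early differentiation against proliferation, and 2.33% and 1.56% in late against early differentiation. Among 11 measured genes of the CoREST complex, 1 fell and 1 rose in late differentiation as compared to proliferation, and the same counts held in early differentiation. Hdac2, a deacetylase of the complex, was at -0.85 ± 0.12 in late and -0.80 ± 0.12 in early differentiation, whereas Zmym3, a zinc finger protein found with it, was at 1.12 ± 0.15 and 1.04 ± 0.15. By the mean of its 2 kept probes Hdac2 was at -0.54 and -0.30 and was not called, and without normalization between arrays the early value of Zmym3 was 0.37, not called. Kdm1a, which encodes LSD1, was at 0.28 ± 0.12 and 0.31 ± 0.12, and the paralogs Rcor2 and Rcor3 were dim. Among 15 measured genes of COMPASS-type complexes, 0 fell and 1 rose in late differentiation, Setd1b, a methyltransferase of a sister complex (0.67 ± 0.09, but 0.15 and not called without normalization between arrays). In early differentiation 1 fell, the shared subunit Dpy30 (-0.59 ± 0.10, but -0.58 and not called by the mean of its 2 probes), and 0 rose. Kmt2d, the paralog of Kmt2c, was at 0.07 ± 0.13 in late and -0.19 ± 0.13 in early differentiation, and the demethylase Kdm6a, which acts with both, at 0.39 ± 0.14 and 0.56 ± 0.14, not called.

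Genes of calcineurin and NFAT signalling were called in both directions. Of 15 measured, 3 fell and 4 rose in late differentiation as compared to proliferation, and 4 fell and 3 rose in early differentiation. The catalytic subunit gene Ppp3cb was at -0.94 ± 0.12 in late and -0.83 ± 0.12 in early differentiation, while Ppp3ca (-0.18 ± 0.22 and -0.22 ± 0.22) and Ppp3cc (-0.10 ± 0.11 and -0.28 ± 0.11) were not called. Calm2, a gene for calmodulin, fell at both stages (-1.66 ± 0.15 and -2.02 ± 0.15), as did Fkbp1a, which encodes the binding protein of FK506 (-1.21 ± 0.11 and -0.94 ± 0.11). Rcan1, an endogenous calcineurin inhibitor whose own transcription calcineurin induces, rose by 1.33 ± 0.14 and 1.29 ± 0.14. Rcan2 rose by 1.14 ± 0.19 in late differentiation and Akap5, an anchoring protein of calcineurin, by 1.40 ± 0.25 in early differentiation. Ppia, which encodes cyclophilin A, fell in early differentiation (-0.77 ± 0.09). Rcan3 (0.75 ± 0.11 in late and 0.76 ± 0.11 in early differentiation) and Calm3 (0.65 ± 0.10 in late differentiation) were called higher, but not without normalization between arrays. Akap5 then fell in late as compared to early differentiation (-1.04 ± 0.25, adjusted p = 0.0340, limma).

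Partners of neuropilin-1 were called lower more than higher. Of 14 measured genes of semaphorin and VEGF signalling, 5 fell and 0 rose in late differentiation as compared to proliferation, and 6 fell and 0 rose in early differentiation. Over all genes 16.2% and 15.2% were called lower, and 17.6% and 16.8% higher. The list was chosen with earlier results of these data known. In late differentiation the ligand genes Vegfc (-1.56 ± 0.37), Vegfa (-1.39 ± 0.15) and Sema3a (-1.08 ± 0.28), the receptor gene Plxnd1 (-1.20 ± 0.27) and Gipc1 (-1.14 ± 0.19), whose product binds the tail of neuropilin-1, were the ones called. In early differentiation Sema3a (-0.74 ± 0.28), Vegfa (-1.39 ± 0.15), Vegfc (-1.30 ± 0.37), Gipc1 (-1.25 ± 0.19), Vegfb (-0.62 ± 0.16) and the co-receptor gene Plxna2 (-0.88 ± 0.19) were called. Vegfb rose in late as compared to early differentiation by 0.61 ± 0.16 (adjusted p = 0.0469, limma). The median of the 14 genes was -0.11 in late and -0.32 in early differentiation against proliferation, where all genes had 0.01 and 0.00. By the mean of its 4 probes Gipc1 was at -0.56 in early differentiation and was not called, nor was Sema3a in that fit. Nrp2 and the plexin A genes other than Plxna2 had no kept probe.

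Of 6 measured genes of the Nogo receptor system, through which Omg acts, 1 fell and 1 rose in late differentiation as compared to proliferation, and 1 fell and 2 rose in early differentiation. Rtn4rl1, a homolog of the Nogo receptor, fell, to a log2 fold change of -2.05 ± 0.22 in late and -1.69 ± 0.22 in early differentiation. Lingo1, a co-receptor, rose by 0.62 ± 0.19 and 1.10 ± 0.19, the late value being 0.37 and not called without normalization between arrays. Tnfrsf19, a TNF receptor relative that can pair with the Nogo receptor, rose by 0.84 ± 0.14 in early differentiation, but was at 0.21 and not called without normalization between arrays. The receptor gene Rtn4r itself was dim at every stage. Of 13 measured adhesion G protein-coupled receptors, 2 fell and 3 rose in late differentiation, and 3 fell and 3 rose in early differentiation. Adgra1, of the same subfamily as Adgra3, rose by 1.66 ± 0.17 and 1.31 ± 0.17, and Celsr1, a planar polarity cadherin, by 1.62 ± 0.11 and 1.88 ± 0.11. Adgrb2, a brain receptor, fell at both stages (-1.63 ± 0.16 and -0.81 ± 0.16). Adgrl3, a latrophilin, fell in late differentiation (-0.80 ± 0.16, but -0.43 and not called by the mean of its 7 probes), and Adgrg6 (-0.79 ± 0.22) and Adgrv1 (-0.64 ± 0.12) fell in early differentiation. Celsr2, a paralog of Celsr1, rose by 0.75 ± 0.27 and 1.03 ± 0.27, but was at 0.27 and 0.43 and not called without normalization between arrays.

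Of 6 measured genes of the miRNA silencing machinery, 0 fell and 1 rose in late differentiation, Tnrc6b, a scaffold of the silencing complex (0.88 ± 0.20, but 0.43 and not called by the mean of its 4 probes). In early differentiation 1 fell, Ago2 (-0.61 ± 0.11), the Argonaute that can cut its target, and 0 rose. Ago2 in late differentiation was at -0.31 ± 0.11, not called. Nfyc, the host gene of Mir30c-1 and Mir30e, was at -0.28 ± 0.10 in late and -0.17 ± 0.10 in early differentiation as compared to proliferation, and neither was called. The level of a host transcript is not that of the mature miRNA.

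**Figure D4:**
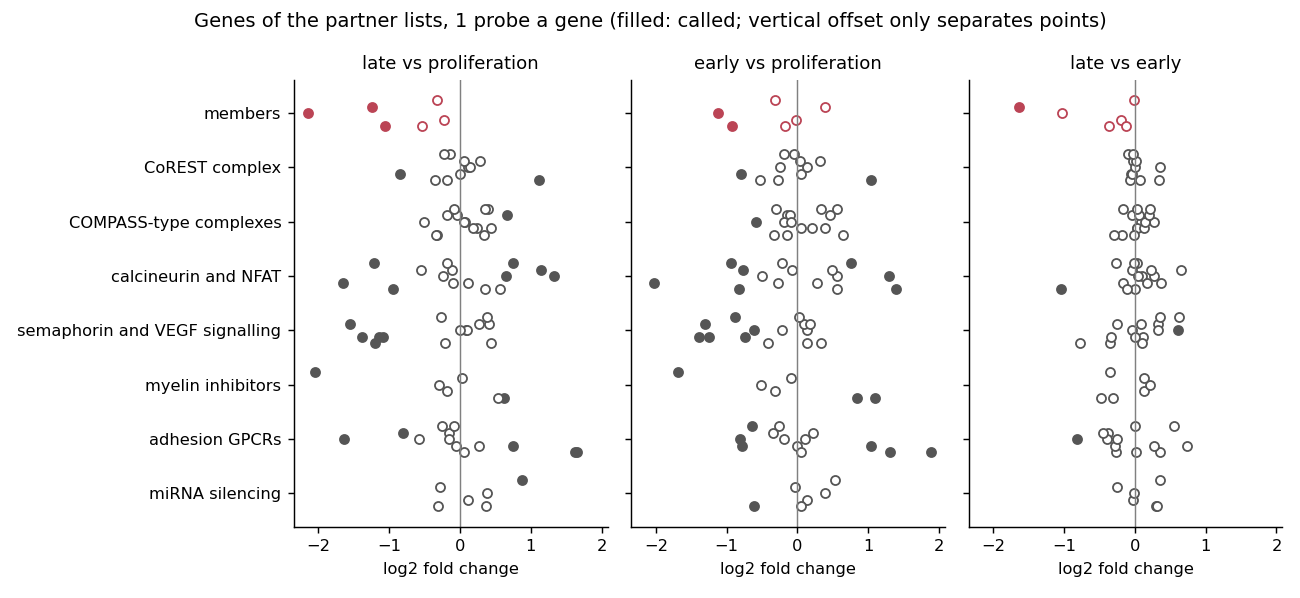
Log2 fold change (x axis) of each gene by its brightest kept probe, for the 6 genes (red) and for 7 lists of partner or related genes (grey), in the 3 comparisons; filled points passed the call. In both comparisons with proliferation, called points lie on both sides of 0 in most of the 7 lists, and all called points of the semaphorin and VEGF list lie below 0.

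The patterns of the 6 genes over the 9 arrays also differed in how common they were. Pearson's r with 11003 other genes, each by its brightest probe, is given as a description, since all genes share arrays and stages. Rcor1 had 1254 genes with r above 0.9, the most similar being Ptges3l (r = 0.998), Timeless, which acts at the replication fork (r = 0.994), and Fignl1 (r = 0.990). Nrp1 had 201 such genes, with Elfn1 (r = 0.972), Hnrnpl (r = 0.971) and Sfswap (r = 0.968) the most similar. Ppp3r1 had 148, led by Nup54 (r = 0.968), Ddx1 (r = 0.964) and Rhoc (r = 0.963), and Adgra3 had 103, led by Bmper (r = 0.979), Gucy1a1 (r = 0.975) and Cox15 (r = 0.974). Omg had 27, led by the ion channel gene Asic1 (r = 0.966), Dclk2 (r = 0.962) and Bhlhb9 (r = 0.957). Kmt2c had 24, led by Zc3h13 (r = 0.966), Samd4b (r = 0.959) and Eif4ebp2 (r = 0.955), a pattern set by late replicate 2. Between the 6 genes, r of Nrp1 (ILMN_1237197) was 0.894 with Adgra3, 0.863 with Rcor1 (ILMN_1224518) and 0.705 with Omg (ILMN_2603450), and r of Rcor1 with Omg was 0.368.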

How the data were processed

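The deposited non-normalized table held, per probe and array, the intensity and the detection p-value that the authors exported from GenomeStudio. Its intensities still held the background, although the methods describe export after background subtraction and analysis in GeneSpring. The deposited value table held background-subtracted intensity times 1 factor per array (mean 107 on each, largest residual 0.0105) and served as an alternative. Labelling used oligo(dT) priming of total RNA.

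Intensities were corrected in limma 3.58.1 (R 4.3.3) by nec (normal-exponential model from the detection p-values, offset 16), quantile normalized and log2 transformed. Of 45281 probes, 34885 had 1 gene symbol in the platform annotation, 18 several and 10378 none; positions are RefSeq's. A linear model gave each stage its own mean over all 9 arrays (lmFit, eBayes). The number of arrays limits the precision. Named were every member probe, fixed partners and markers, the 2 called genes with the largest change per list and direction in late differentiation against proliferation, and the 3 most similar genes; other called partners were named after their values were seen. Members and lists were chosen with earlier results of these data known. The stage model and the fit of probe differences were tested on simulated data with independent errors, and the alternative fits were not.

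Same-numbered arrays deviated together between early differentiation and proliferation (r = 0.164, 0.146 and 0.251 over probes) and between late and early differentiation (0.242, 0.140 and 0.318). Between late differentiation and proliferation r was lower (0.0425, 0.0397 and 0.126), and differently numbered arrays gave -0.140 to 0.0825. The pairing comes from these correlations alone, and the model held no block. Alternatives changed background, scaling, filter, fold minimum, variance model and arrays. Seed matches were not run.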

Additional observations from a re-analysis of the deposited data

How the results depend on the processing

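Probes of Nrp1 (ILMN_1237197, ILMN_2669912), Rcor1 (ILMN_1224518) and Omg (ILMN_2603450) kept their calls and direction under every alternative in late differentiation against proliferation, as did Omg in late against early differentiation. So did Rcor1 and Nrp1 in early differentiation against proliferation, except Nrp1 ILMN_1237197 in the deposited value table. Without normalization between arrays 10 member probes were called lower in late and 7 in early differentiation against proliferation, among 6507 (31.1%) and 7399 (35.3%) of all kept probes, with 1653 and 1320 called higher. Calls that were higher then made up 20.3% and 15.1%, against 49.9% and 50.6% as reported, and 69.1% in late against early differentiation (224 lower, 500 higher), against 43.9%. With the adjusted p alone, 8 member probes were lower in late differentiation (25.3% of all kept probes) and 2 in late against early differentiation (2.83%), among 5287 lower and 5053 higher probes (late against proliferation), 5180 and 4847 (early against proliferation) and 592 and 595 (late against early). With an offset of 50 the counts were 1967 and 2016, 1831 and 1960, and 188 and 141. Late against early differentiation gave 172 and 170 with subtracted background and 246 and 181 in the value table. The cause of these shifts in count was not tested beyond the construction of each setting.

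With replicate number as a block, 3 member probes in place of 1 were called lower in late against early differentiation (both bright Nrp1 probes joined Omg); it changed no other member call. Without replicate 3 of every stage, an alternative chosen after seeing the data, 2 member probes were called lower in late against early differentiation and 1, of Omg, higher in early differentiation against proliferation. Leaving out single arrays gave 1 to 3 member probes lower in late against early differentiation and 0 to 1 higher in early differentiation against proliferation; over all probes, late against early differentiation ranged over 225 to 424 lower and 184 to 377 higher, the lowest of both without early replicate 2.

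The sign changed only for uncalled values, apart from the pair of Kmt2c probes. Without normalization between arrays Kmt2c ILMN_2514607 was at -0.0506 in late and Omg ILMN_2603450 at -0.23 in early differentiation against proliferation, Ppp3r1 was at 0.14 in late against early differentiation, and the Kmt2c probe pair was at -0.53 in early differentiation against proliferation (adjusted p = 0.0262, limma). With subtracted background Ppp3r1 was at 0.0320 in late against early differentiation. Without replicate 3 of every stage Kmt2c ILMN_2514607 was at -0.00888, 0.00612 and -0.0150 in the 3 comparisons. Over single arrays left out, the ranges were -0.0611 to 0.10 for that probe and -0.36 to 0.0124 for Kmt2c ILMN_2700430 in late differentiation against proliferation. In early differentiation against proliferation they were -0.0530 to 0.0146 for Kmt2c ILMN_2700430, -0.34 to 0.0696 for Nrp1 ILMN_1247094 and -0.12 to 0.0374 for Omg ILMN_1248920. In late against early differentiation they were -0.34 to 0.0315 for Kmt2c ILMN_2700430 and -0.0712 to 0.0550 for Ppp3r1. The dim probes of Kmt2c and Omg stood at the floor of 16 on all arrays compared in 10 cases of the subtracted background and the value table, which then gave no value.

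Of the partner lists, without normalization between arrays the genes called lower in late and early differentiation against proliferation were 3 and 4 for CoREST, 4 and 8 for COMPASS-type complexes, 6 and 7 for calcineurin, 2 and 2 for the Nogo receptor system, 4 and 6 for adhesion receptors and 2 and 3 for silencing. Those called higher were 0 for CoREST in early, 0 for COMPASS-type complexes, 2 for calcineurin and 0 for the Nogo receptor system in late, and 1 for the Nogo receptor system in early differentiation. In late against early differentiation 1 calcineurin gene was called higher. By the mean of all kept probes of a gene, 0 CoREST genes were called lower in late and early differentiation, 0 COMPASS-type genes lower in early and 0 silencing genes higher in late differentiation. Few arrays limit the depth of these comparisons, and signals near background bound those of dim probes.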
